A study of Mus musculus with 80 samples.

Results

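Macrophages are the phagocytes that live in every tissue. In adipose tissue they clear dying cells and take up lipid, in liver they line the sinusoids as Kupffer cells, and in muscle they clear damaged fibres. They recognise their targets through Fc receptors, complement C1q and scavenger receptors, digest them in lysosomes, and release cytokines such as TNF and interleukin-1 beta when they meet danger signals. A list of 37 macrophage, Kupffer cell and inflammatory genes, all present among the 32764 genes of the count tables, was followed across 4 tissues of 4 mouse genotypes. The genes were taken by name for what they are known to do, by no threshold on measured values, although earlier results of these data were known when the list was drawn up.

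The mice were male C57BL/6J animals of 4 genotypes. Wildtype (WT) mice stood beside mice without UCP1 (UCP1 KO), without FGF21 (FGF21 KO) or without both (dKO, spelled UCP1/FGF12 double KO in the GEO labels). UCP1 is the uncoupling protein that lets brown fat make heat, and FGF21 is an endocrine growth factor of metabolism. All mice had been raised at 30 °C, and from 10 to 12 weeks of age they were kept at room temperature on a high-fat diet for 3 weeks, with food withdrawn for 2 to 3 h at the end. The knockouts are not specific to a tissue. Liver, skeletal muscle, inguinal white fat (iWAT) and brown fat (BAT) gave 5 libraries each per genotype, 80 in all, of poly(A) RNA. The labels do not link the tissues of 1 mouse, and p-values measure the spread between these libraries.

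The libraries held 28691377 to 50380696 counts. Values are given as CPM, the count of a gene scaled to its library's depth, in the order of replicates 1 to 5, whose numbers are names only. In BAT, the libraries labelled UCP1 KO held 24291 to 60779 Ucp1 counts and those labelled WT 98548 to 216085. In iWAT, WT libraries held 109 to 776 Ucp1 counts and UCP1 KO libraries more, at 3942 to 20264. UCP1 KO in iWAT therefore means the libraries labelled so. Reads of Ucp1 were counted in UCP1 KO libraries of both fat depots, so its counts alone do not report the knockout. The paper describes browning of iWAT in UCP1 KO mice. Fgf21 differed between the same iWAT libraries, at 23 to 385 counts in those labelled UCP1 KO and 2 to 11 in WT, and their scores over brown adipocyte genes were 4.91 to 7.75 and 1.48 to 2.68, so both measures separated the libraries as labelled. Fgf21 had at most 3 counts in any FGF21 KO or dKO library. A score for skeletal muscle genes, the mean log2 of CPM plus 0.1 over the list, lay in BAT between 1.41 and 3.48 (WT), 1.56 and 5.24 (FGF21 KO), 2.51 and 9.68 (UCP1 KO) and 2.99 and 8.73 (dKO). A score for lymph node genes split the iWAT libraries into 9 between 6.28 and 7.21 and 11 between -0.49 and 1.61. Results in these tissues are therefore also given with those libraries left out.

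A few genome positions frame the list (GRCm38, GENCODE vM21). Several members lie side by side. The integrin genes Itgam and Itgax lie next to each other at chr7:128062640-128118491 and chr7:128129547-128150657. The C1q genes C1qb, C1qc and C1qa follow each other at chr4:136880129-136886187, chr4:136889804-136893065 and chr4:136895917-136898803. The lysozyme genes Lyz2 and Lyz1 sit at chr10:117277331-117282321 and chr10:117287797-117292868. Lyz1 and Lyz2 are near copies of each other. How the authors' counting treated reads that match both is not stated, so their separate levels are uncertain. The Kupffer cell markers Clec4f, Vsig4 and Timd4 lie at chr6:83644542-83656187, chrX:96247203-96293438 and chr11:46810800-46844332.

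The members that rose in BAT with UCP1 loss both with and without FGF21 were 6 (Cd68, Itgax, Mpeg1, Ctss, Trem2 and Gpnmb, below). Whether they moved as a set was not tested. The 150 bases before their RefSeq start are printed to show what their promoters do and do not share (GRCm38.p6, read 5′ to 3′ on the gene's strand). Capitals mark TGANTCA, the letters that AP-1 factors bind, and GAGGAA on either strand, the core that the macrophage factor PU.1 and other ETS factors bind.
Cd68, chr11:69666171-69666320, minus strand: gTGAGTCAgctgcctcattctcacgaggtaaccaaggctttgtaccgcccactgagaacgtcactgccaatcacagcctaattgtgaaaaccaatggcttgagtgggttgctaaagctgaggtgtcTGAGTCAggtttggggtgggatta
Itgax, chr7:128129400-128129549, plus strand: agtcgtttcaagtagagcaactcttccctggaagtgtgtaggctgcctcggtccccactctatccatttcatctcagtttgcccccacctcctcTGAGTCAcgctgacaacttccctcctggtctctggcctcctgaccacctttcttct
Mpeg1, chr19:12460620-12460769, plus strand: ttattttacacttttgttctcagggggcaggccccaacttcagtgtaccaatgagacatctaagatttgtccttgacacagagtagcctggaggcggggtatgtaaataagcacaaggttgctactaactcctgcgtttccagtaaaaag
Ctss, chr3:95526636-95526785, plus strand: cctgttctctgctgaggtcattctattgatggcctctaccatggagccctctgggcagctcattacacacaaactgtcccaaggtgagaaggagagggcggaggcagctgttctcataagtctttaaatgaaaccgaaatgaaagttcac
Trem2, chr17:48346251-48346400, plus strand: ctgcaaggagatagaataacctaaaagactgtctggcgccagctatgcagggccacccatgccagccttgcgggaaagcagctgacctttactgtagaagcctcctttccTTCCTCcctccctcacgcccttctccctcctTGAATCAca
Gpnmb, chr6:49036368-49036517, plus strand: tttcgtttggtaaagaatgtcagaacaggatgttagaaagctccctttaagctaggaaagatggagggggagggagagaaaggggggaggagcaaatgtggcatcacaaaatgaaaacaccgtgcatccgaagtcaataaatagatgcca

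Cd68 held TGANTCA at 2 places in this stretch, Itgax at 1 and Trem2 at 1, and Trem2 also held GAGGAA as its reverse complement. Mpeg1, Ctss and Gpnmb held neither in the bases shown. Over the 250 bases before the start, both strands searched, TGANTCA was in 4 of the 28 members with a RefSeq entry (Cd68, Il6, Itgax and Trem2) and in 6.75% of 32851 promoters. GAGGAA was in 15 of the 28 members and in 23.3% of promoters. The longer form GAGGAAGT, which contains GAGGAA, was in 3 members and 2.44% of promoters. The palindrome CACGTG, the E-box read by MITF and TFEC, was in 0 of the 28 and in 6.02%. A match is a run of letters and not a measured binding site.

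In BAT, 19 of the 33 members tested rose in UCP1 KO relative to WT and 0 fell (edgeR quasi-likelihood test, Benjamini-Hochberg adjusted p under 0.01), against 13.8% of all 15729 genes tested that rose. At an unadjusted p under 0.05 there were 27. DESeq2 called 22, all of them higher. The members' median log2 fold change was 1.15, against 0.01 for all genes. In bulk tissue, more macrophages and more RNA per macrophage cannot be told apart. The calls covered the parts of the phagocyte: 6 of 7 lineage and surface genes, 5 of 5 Fc receptors and adaptors, 3 of 3 C1q chains, 2 of 3 lysozymes and cathepsin S, 2 of 3 lipid-associated genes and 1 of 5 scavenger receptors. Of the inflammatory mediators, the alternative activation genes and the resident marker Timd4, 0 of 7 were called by edgeR (3 at an unadjusted p under 0.05), and DESeq2 called 1, Chil3. Marco, Clec4f, Vsig4 and Il6 did not pass the filter on low counts in BAT. In 16 of the 33 members every UCP1 KO library lay above every WT library, against 11.8% of all genes tested.

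**Figure D1:**
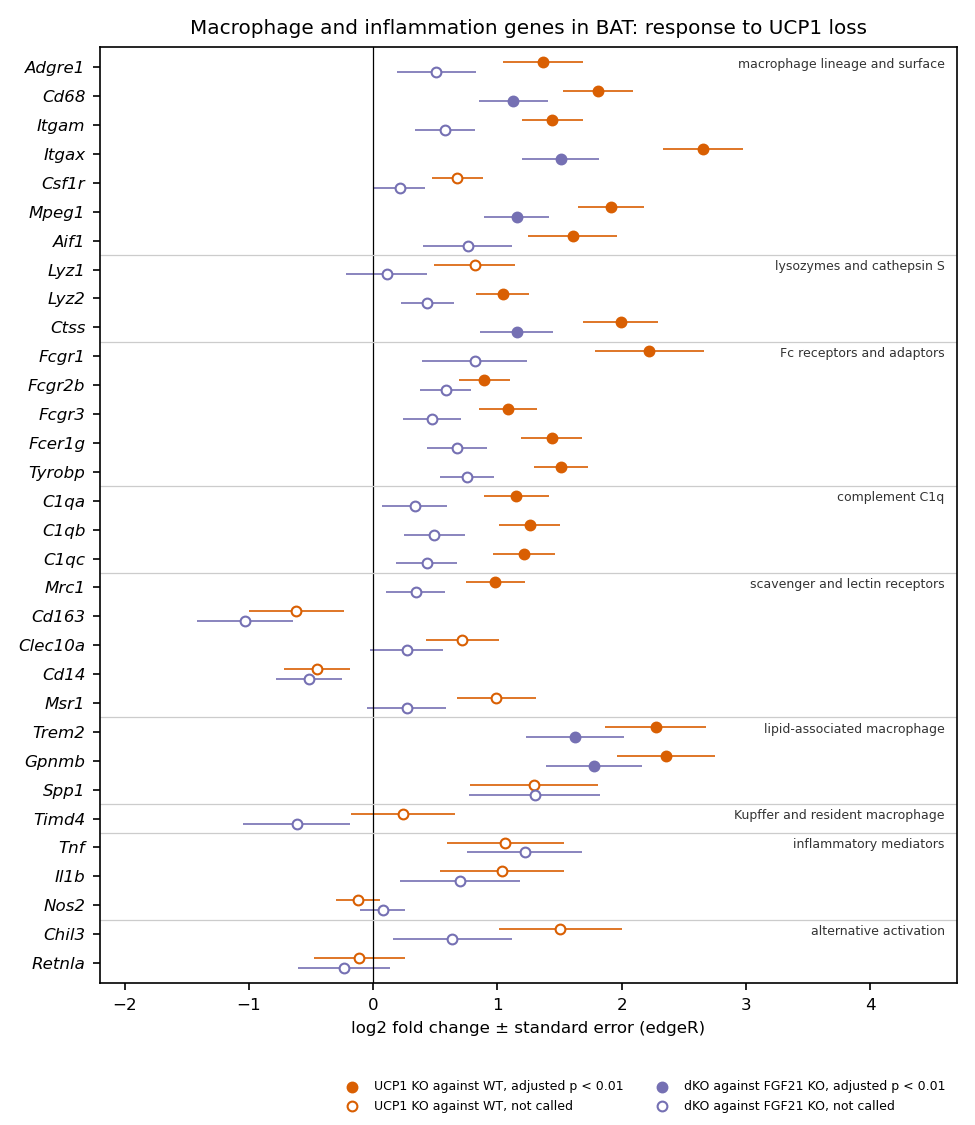
Log2 fold change of members tested in BAT for UCP1 KO against WT and for dKO against FGF21 KO, with bars of 1 SE from the edgeR fit, filled points for an adjusted p under 0.01 and open points for the rest. In the first comparison the called members ran from 0.89 for Fcgr2b to 2.65 for Itgax. In the second, 6 passed, from 1.13 for Cd68 to 1.78 for Gpnmb.

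Among the lineage and surface genes, Itgax encodes CD11c, an integrin of dendritic cells and of macrophages recruited to fat, and measured 0.669, 1.12, 0.909, 0.553 and 0.84 CPM in WT, 0.879, 1.54, 1.13, 2.39 and 0.938 in FGF21 KO, 3.33, 8.17, 3.44, 4.82 and 6.04 in UCP1 KO and 4.24, 5.75, 3.04, 2.6 and 3.82 in dKO. Every UCP1 KO library lay above every WT library, and the lowest dKO library lay above the highest FGF21 KO library. The log2 fold change of UCP1 KO against WT was 2.65 (SE 0.323, adjusted p = 7.69e-06), the widest of the 33 members that passed the filter on low counts. Mpeg1, which encodes the pore-forming perforin-2 of phagocytes, measured 15.7, 17.9, 13.9, 11.4 and 13.8 CPM in WT, 14.5, 17.4, 17.8, 24 and 16.3 in FGF21 KO, 36.7, 87.1, 30.9, 57.9 and 61.7 in UCP1 KO and 32.3, 69.1, 27.6, 34.9 and 36.3 in dKO. UCP1 KO stood clear of WT, and dKO clear of FGF21 KO. The change was 1.91 (SE 0.268, adjusted p = 3.23e-05). Cd68, a lysosomal glycoprotein used to stain macrophages, measured 5.2, 6.0, 5.14, 6.57 and 6.57 CPM in WT, 5.84, 6.31, 6.26, 8.27 and 6.19 in FGF21 KO, 9.73, 32.6, 12.4, 20.9 and 27.7 in UCP1 KO and 13.7, 23.8, 9.73, 10.7 and 13.8 in dKO. Again neither pair overlapped, and the change with UCP1 loss was 1.81 (SE 0.284, adjusted p = 9.32e-05).

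Aif1, the calcium-binding protein IBA1, measured 1.0, 1.16, 1.5, 1.04 and 0.926 CPM in WT, 1.16, 0.977, 1.42, 1.56 and 1.13 in FGF21 KO, 1.37, 5.5, 2.0, 3.64 and 4.62 in UCP1 KO and 1.25, 4.34, 1.41, 1.72 and 1.88 in dKO. One UCP1 KO library lay inside the WT range, and the log2 fold change was 1.60 (SE 0.362, adjusted p = 0.00192). Itgam, which encodes CD11b, measured 4.38, 5.02, 3.64, 4.94 and 4.57 CPM in WT, 4.28, 3.49, 5.48, 5.71 and 5.25 in FGF21 KO, 9.84, 19.7, 6.54, 11.3 and 14 in UCP1 KO and 6.41, 9.18, 4.34, 8.93 and 7.25 in dKO. The UCP1 KO libraries all lay above WT, with a change of 1.44 (SE 0.244, adjusted p = 0.000178). Adgre1, which encodes the macrophage antigen F4/80, measured 8.82, 9.55, 7.13, 9.01 and 6.2 CPM in WT, 7.03, 7.08, 7.58, 13.6 and 8.23 in FGF21 KO, 13.2, 30.7, 9.08, 19.9 and 32.3 in UCP1 KO and 10.9, 16.8, 5.8, 16.9 and 11.4 in dKO. The lowest UCP1 KO library lay below the highest WT library, and the change was 1.37 (SE 0.323, adjusted p = 0.0027). Csf1r, the receptor for the macrophage growth factor CSF1, was the lineage gene that missed the threshold, at 0.68 (SE 0.207, adjusted p = 0.014). DESeq2 called it, at a log2 fold change of 0.70 and an adjusted p of 0.00423.

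**Figure D2:**
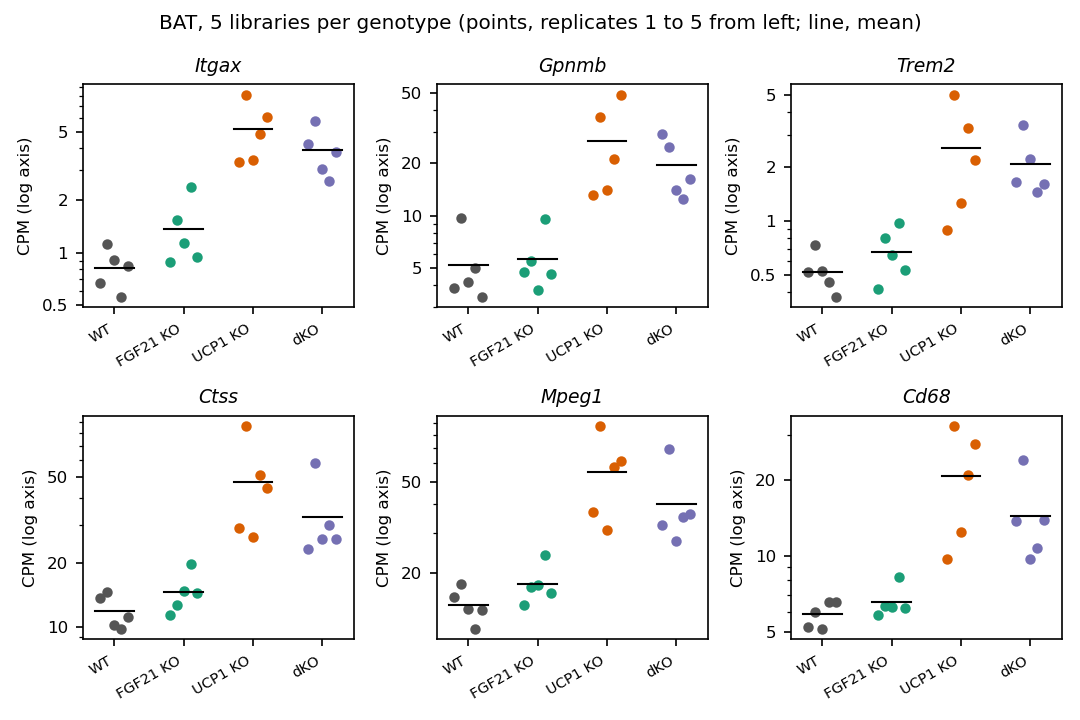
CPM of the 6 members called in both comparisons in BAT, 1 point per library, 5 per genotype, on a log axis, with a line at the mean. For each gene the UCP1 KO libraries sit above WT and the dKO libraries above FGF21 KO.

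The Fc receptors bind antibody-coated targets and signal through the adaptors FcRγ, encoded by Fcer1g, and DAP12, encoded by Tyrobp. Fcgr1, the high-affinity IgG receptor, measured 1.28, 1.12, 0.734, 1.2 and 1.33 CPM in WT, 1.34, 0.888, 1.87, 1.66 and 1.75 in FGF21 KO, 1.82, 9.7, 2.08, 6.32 and 6.69 in UCP1 KO and 1.61, 5.52, 1.44, 2.29 and 2.38 in dKO. All UCP1 KO libraries exceeded all WT libraries, by a log2 fold change of 2.22 (SE 0.438, adjusted p = 0.000661). Tyrobp measured 5.87, 5.58, 5.77, 5.2 and 5.3 CPM in WT, 6.02, 4.97, 6.29, 7.44 and 6.63 in FGF21 KO, 9.06, 24.6, 10.1, 17.1 and 18.2 in UCP1 KO and 9.36, 15.1, 9.5, 9.83 and 9.19 in dKO. Its UCP1 KO libraries also all lay above WT, and the change was 1.51 (SE 0.218, adjusted p = 4.22e-05). Fcer1g measured 5.17, 4.46, 4.09, 5.63 and 5.12 CPM in WT, 4.5, 4.53, 5.61, 6.78 and 5.66 in FGF21 KO, 7.24, 20.4, 8.29, 14.9 and 15.4 in UCP1 KO and 6.94, 13.5, 7.31, 8.13 and 7.35 in dKO. It showed the same separation with a change of 1.44 (SE 0.246, adjusted p = 0.0002). Fcgr3 changed by 1.09 (adjusted p = 0.0014) and the inhibitory receptor gene Fcgr2b by 0.89 (adjusted p = 0.00203).

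The C1q chains start the classical complement cascade and are made largely by tissue macrophages. C1qb measured 20.1, 20.4, 16.7, 20.7 and 21.4 CPM in WT, 19, 16.2, 22, 26.6 and 28.6 in FGF21 KO, 29.4, 78.2, 27.8, 44.8 and 57.6 in UCP1 KO and 26.5, 44.5, 21.6, 33.1 and 32.6 in dKO. C1qc measured 13.1, 13.7, 13.1, 16.2 and 14.4 CPM in WT, 13.3, 12, 16.1, 16 and 20.4 in FGF21 KO, 19.2, 56.4, 19.4, 29.9 and 39 in UCP1 KO and 18.6, 29.3, 14.4, 20.3 and 22.1 in dKO. For both, the lowest UCP1 KO library exceeded the highest WT library, with log2 fold changes of 1.26 (SE 0.247, adjusted p = 0.000629) for C1qb and 1.21 (SE 0.248, adjusted p = 0.000899) for C1qc. C1qa changed by 1.15 (SE 0.262, adjusted p = 0.00205), from 18.1 ± 1.06 CPM (SD, n = 5) in WT to 40.3 ± 19.5 CPM in UCP1 KO.

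Among the digestive enzymes, Ctss encodes cathepsin S, the lysosomal protease that trims antigens for MHC class II. It measured 13.7, 14.6, 10.2, 9.85 and 11.1 CPM in WT, 11.4, 12.7, 14.7, 19.8 and 14.5 in FGF21 KO, 28.9, 86.4, 26.2, 51 and 44.6 in UCP1 KO and 23.2, 58.4, 25.7, 29.8 and 25.7 in dKO. Neither UCP1 KO and WT nor dKO and FGF21 KO overlapped, and the change of UCP1 KO against WT was 1.99 (SE 0.302, adjusted p = 6.62e-05). Lyz2, the lysozyme of macrophages and neutrophils, measured 87.7, 89, 68.7, 68.5 and 67.3 CPM in WT, 62.9, 70.9, 91.7, 135 and 108 in FGF21 KO, 136, 228, 89.4, 162 and 171 in UCP1 KO and 113, 154, 113, 136 and 119 in dKO. Its lowest UCP1 KO library lay just above the highest WT library, with a log2 fold change of 1.04 (SE 0.213, adjusted p = 0.000892). Lyz1 measured 5.54, 4.99, 2.9, 2.76 and 2.46 CPM in WT, 1.78, 3.58, 4.26, 5.29 and 5.63 in FGF21 KO, 6.6, 11.1, 4.09, 4.2 and 6.93 in UCP1 KO and 3.53, 3.06, 6.58, 4.35 and 4.53 in dKO. Its groups overlapped and it was not called, at 0.82 (SE 0.327, adjusted p = 0.0528).

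The lipid-associated genes mark the macrophages that gather around dying, lipid-laden cells. Gpnmb, a transmembrane glycoprotein of lysosome-rich macrophages, measured 3.83, 9.69, 4.19, 5.04 and 3.42 CPM in WT, 4.74, 5.51, 3.77, 9.61 and 4.66 in FGF21 KO, 13.2, 36.5, 14, 21 and 49.3 in UCP1 KO and 29.3, 24.8, 14.1, 12.5 and 16.2 in dKO. UCP1 KO libraries all exceeded WT, and dKO libraries all exceeded FGF21 KO. The log2 fold change with UCP1 loss was 2.36 (SE 0.396, adjusted p = 0.000168). Trem2, a lipid-sensing receptor that signals through DAP12, measured 0.517, 0.737, 0.524, 0.455 and 0.376 CPM in WT, 0.417, 0.799, 0.645, 0.968 and 0.532 in FGF21 KO, 0.885, 5.02, 1.26, 3.29 and 2.18 in UCP1 KO and 1.64, 3.43, 2.19, 1.44 and 1.61 in dKO. Both pairs of groups were separate, with a change of 2.27 (SE 0.407, adjusted p = 0.000288) for UCP1 KO against WT. Spp1, the secreted glycoprotein osteopontin, measured 0.0608 to 0.813 CPM in WT and 0.489 to 2.55 CPM in UCP1 KO and was not called, at 1.30 (SE 0.515, adjusted p = 0.0511).

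The remaining genes were mixed. Mrc1, the mannose receptor CD206, was the scavenger receptor that edgeR called, at 0.98 (SE 0.239, adjusted p = 0.00328). It lost the call without UCP1 KO replicate 2 (adjusted p = 0.0108) or replicate 5 (0.0101) and with the muscle score as covariate (0.0131). Msr1 reached 0.99 (adjusted p = 0.0183) and was called by DESeq2 (1.01, adjusted p = 0.00699) and without UCP1 KO replicate 1 (0.00719) or 3 (0.00544). Clec10a reached 0.72 (0.0586). Cd163, the haemoglobin scavenger receptor, had a log2 fold change of -0.62 (0.206), with UCP1 KO libraries at 5.74, 15.2, 3.73, 3.83 and 3.97 CPM and WT libraries at 9.58, 8.46, 9.3, 13.3 and 9.06 CPM. Replicate 2 lay above the WT range and the other 4 UCP1 KO libraries below it. Without that library Cd163 was called lower, at -1.21 (adjusted p = 0.00554), and with the muscle covariate it was called lower at -1.30 (0.00436). Cd14, the lipopolysaccharide co-receptor, stood at -0.45 (0.179).

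Of the cytokines, Il6 had 0 to 2 counts per library in WT and 4 to 14 in UCP1 KO. It was below the filter on low counts, and the edgeR fit of all 37 members without that filter called it higher (adjusted p = 0.00402). The cytokine and activation genes that passed the filter were not called by edgeR. Tnf stood at a log2 fold change of 1.07 (adjusted p = 0.0758), Il1b at 1.04 (0.104) and Nos2, the inducible nitric oxide synthase, at -0.12 (0.618). Of the alternative activation genes, Chil3 stood at 1.51 (0.0206) and Retnla at -0.11 (0.838). Timd4, a phosphatidylserine receptor of long-lived resident macrophages, measured 0.821, 0.632, 0.419, 0.585 and 0.811 CPM in WT, 0.373, 0.207, 0.903, 0.346 and 1.34 in FGF21 KO, 0.483, 1.37, 0.346, 0.739 and 0.938 in UCP1 KO and 0.53, 0.366, 0.33, 0.36 and 0.46 in dKO. Its groups overlapped, and UCP1 KO against WT gave 0.24 (SE 0.418, adjusted p = 0.68).

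The height of the response differed between UCP1 KO libraries. Replicate 2 was the highest in 17 of the 19 called members and replicate 5 in the other 2, while the lowest was replicate 1 in 10 and replicate 3 in 9. In dKO, replicate 2 was the highest in 15 of the 19 and replicate 3 the lowest in 12. Skeletal muscle scores were 2.63, 9.68, 6.27, 5.09 and 2.51 in UCP1 KO replicates 1 to 5, highest in replicate 2, and 8.43, 2.99, 8.73, 8.64 and 4.92 in dKO, lowest in replicate 2. Scores over the dendritic cell genes were 0.22, 1.22, 0.34, 0.86 and 1.16 in UCP1 KO and 0.30, 1.02, 0.48, 0.21 and 0.60 in dKO, highest in replicate 2 of both. The part of either in the members' levels was not tested. Among the 15 BAT libraries with a muscle score at or under 6, which leave 5 WT, 5 FGF21 KO, 3 UCP1 KO (replicates 1, 4 and 5) and 2 dKO (replicates 2 and 5), 20 members passed as higher in UCP1 KO, against 13.4% of all genes. With the score as a covariate 18 were higher and Cd163 was lower. Leaving out each library in turn gave 18 to 21 calls.

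Loss of UCP1 was also compared without FGF21, in libraries shared with none of those above. Both comparisons came from the same edgeR fit of all BAT libraries. The WT and UCP1 KO libraries therefore also entered the spread behind these p-values, which are not independent of those above. In dKO against FGF21 KO, 6 of 33 members were higher in BAT and 0 lower, against 6.74% of all genes higher. At an unadjusted p under 0.05 there were 15, DESeq2 called 7, and the members' median log2 fold change was 0.58. Gpnmb changed by 1.78 (SE 0.388, adjusted p = 0.00275), Trem2 by 1.62 (SE 0.395, adjusted p = 0.00575) and Itgax by 1.51 (SE 0.306, adjusted p = 0.00163). Ctss changed by 1.16 (SE 0.295, adjusted p = 0.0076), Mpeg1 by 1.15 (SE 0.262, adjusted p = 0.00362) and Cd68 by 1.13 (SE 0.279, adjusted p = 0.00626). In 8 of the 33 members every dKO library lay above every FGF21 KO library, against 8.84% of all genes. Tyrobp fell short at 0.76 (SE 0.215, adjusted p = 0.0143) and was called by DESeq2 (0.0038). Libraries outside the comparison changed calls by edgeR. Tyrobp was called without UCP1 KO replicate 1 (adjusted p = 0.00571), 2 (0.00492) or 3 (0.00948). Ctss lost its call without WT replicate 5 (0.0101).

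The count moved when libraries were left out. It fell to 2 without dKO replicate 2, FGF21 KO replicate 1 or FGF21 KO replicate 5, to 3 without FGF21 KO replicate 2 or 3, and reached 7 at most. Itgax and Gpnmb were called in all 20 fits that left out 1 library, Mpeg1 in 17, Ctss and Trem2 in 14 and Cd68 in 13. With the muscle score as a covariate Itgax, Gpnmb and Mpeg1 were called higher and Cd163 lower, at -1.75 (adjusted p = 0.00159), while Trem2 at 1.45 (0.0275), Ctss at 1.15 (0.0219) and Cd68 at 1.20 (0.0135) were not called. Among the 15 BAT libraries with a muscle score at or under 6, 8 of 33 members were higher in dKO, against 7.24% of all genes. That fit holds 2 dKO libraries against 5 of FGF21 KO, and 1 of the 2 is replicate 2, without which the count over all libraries was 2.

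Whether FGF21 altered the response was tested as the difference between both changes. In BAT 0 of 33 members were called in this interaction (edgeR), 8 had an unadjusted p under 0.05, and DESeq2 called 0, with 0% of all genes called. The 8 were Itgax, Itgam, Tyrobp, Fcgr1, Fcer1g and the 3 C1q genes, each at an adjusted p of 0.904. Itgax differed by 1.15 on the log2 scale (SE 0.435) and Fcgr1 by 1.41 (SE 0.603), where a positive value is a wider change in mice that have FGF21. UCP1 KO against dKO gave 0 calls (0.0636% of all genes, 13 members at an unadjusted p under 0.05, DESeq2 0), and FGF21 KO against WT gave 0 (0% of all genes, 1 member at an unadjusted p under 0.05, DESeq2 0). Both share libraries with the comparisons above. Among the 15 BAT libraries with a muscle score at or under 6, with 3 UCP1 KO and 2 dKO libraries left, dKO replicate 2 among them, the interaction had 0 calls (0% of all genes) and 1 member at an unadjusted p under 0.05. UCP1 KO against dKO had 0 calls, against 1.29% of all genes in that fit, and 2 members at that p.

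Other genes of macrophage biology were followed as fixed lists in the same BAT libraries. Of 18 phagocyte signalling genes, which carry signals from integrins and Fc receptors and build the oxidase, 18 rose with UCP1 loss where FGF21 was present and 5 rose where it was absent, with median log2 fold changes of 1.37 and 0.89. Among them were Itgb2 (1.68, adjusted p = 6.84e-05), Btk (1.65, adjusted p = 0.000178) and Vav1 (1.65, adjusted p = 0.000144). Of 18 genes of lipid handling and lysosomes, 9 were higher and 1 lower in UCP1 KO, and 4 were higher and 1 lower in dKO. Lgals3, the galectin of lipid-loaded macrophages, went from 5.79 ± 1.32 CPM (SD, n = 5) to 87.7 ± 59.95 CPM, a log2 fold change of 3.92 (SE 0.466, adjusted p = 6.26e-06). The proton pump subunit gene Atp6v0d2, the elastase gene Mmp12 and the lipid droplet gene Plin2 followed, at Atp6v0d2 (2.55, adjusted p = 0.000677), Mmp12 (2.48, adjusted p = 0.00272) and Plin2 (1.40, adjusted p = 9.01e-05). The 1 lower gene, named after its values were seen, was Apoe, at -1.27 (SE 0.192, adjusted p = 6.70e-05).

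Of 15 tested growth factors and regulators, 7 were higher and 2 lower in UCP1 KO, and 3 were higher and 1 lower in dKO. Over all genes, 13.8% were higher and 11.4% lower in UCP1 KO, and 6.74% higher and 6.8% lower in dKO, so the lower shares of the list were near those of all genes. The widest changes among the higher genes were Tfec (2.21, adjusted p = 0.00343), Spi1 (1.93, adjusted p = 0.000171), Irf5 (1.67, adjusted p = 9.29e-05) and Irf8 (1.66, adjusted p = 0.000397). Spi1 encodes PU.1. The lower genes, also named after their values were seen, were Il34, a second ligand of the CSF1 receptor, and Id3, at -0.79 and -0.62. Of 23 genes of pattern recognition and the inflammasome, 8 were higher in UCP1 KO and 2 in dKO, and 0 were lower in either, a share in dKO near the 6.74% of all genes. Those in UCP1 KO included Casp1 (1.62, adjusted p = 0.00013), Tlr7 (1.61, adjusted p = 0.001), Pycard (1.52, adjusted p = 0.000742) and Il10ra (1.39, adjusted p = 0.0013). The lists were drawn up with earlier results of these data known, and are given as counts.

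Markers of other cells were read beside these counts. Dendritic cell genes moved with them: 3 of 6 were higher in UCP1 KO, namely Flt3 (2.06, adjusted p = 0.00193), Xcr1 (1.99, adjusted p = 0.00402) and Clec9a (1.83, adjusted p = 0.000158), and 3 in dKO, and the score over the 6 was -0.22 to 0.19 (WT), -0.82 to -0.11 (FGF21 KO), 0.22 to 1.22 (UCP1 KO) and 0.21 to 1.02 (dKO). Of 10 skeletal muscle genes 6 were higher in UCP1 KO, among them Myh1 (5.71, adjusted p = 0.0094), Acta1 (5.13, adjusted p = 0.00993), Ckm (4.98, adjusted p = 0.0089) and Atp2a1 (4.91, adjusted p = 0.00989). Of 4 tested neutrophil genes Csf3r was higher (1.37), while the neutrophil marker Ly6g had at most 1 count in any BAT library, and the score over the 8 genes was -1.89 to -1.33 (WT) against -1.73 to -1.08 (UCP1 KO). Lymph node, mast cell, endothelial and fibroblast lists had 0 calls in UCP1 KO against WT by edgeR (2 of 8, 4 of 5, 2 of 5 and 1 of 5 genes at an unadjusted p under 0.05). In dKO against FGF21 KO the lymph node list had 1, Cd3e. Of 5 adipocyte genes 1 was lower in UCP1 KO, Adipoq (-1.15), and of 5 brown adipocyte genes 1 was higher, Elovl3 (3.31). Over all genes, 13.8% were higher and 11.4% lower in UCP1 KO, and 6.74% and 6.8% in dKO against FGF21 KO. A single call among 4 or 5 genes says little beside those shares. The adipocyte score was 8.98 to 9.47 (WT) against 7.61 to 9.60 (UCP1 KO), and the brown adipocyte score 7.17 to 8.29 against 7.70 to 8.96, both overlapping. For dKO against FGF21 KO the adipocyte list also had 1 lower gene and the brown adipocyte list 1 higher gene. Their adipocyte scores were 9.14 to 9.57 (dKO) and 8.75 to 9.63 (FGF21 KO), overlapping, while their brown adipocyte scores were 8.39 to 8.82 and 7.60 to 8.07, with every dKO library above every FGF21 KO library. The hepatocyte score was 0.02 to 0.58 (WT), -0.42 to 1.83 (FGF21 KO), 0.26 to 1.77 (UCP1 KO) and 1.80 to 2.30 (dKO). Of its 5 genes 0 were called by edgeR in either comparison, with 1 at an unadjusted p under 0.05 in UCP1 KO and 5 in dKO. The part of dendritic, muscle, brown adipocyte or other cells in the members' counts was not tested.

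In iWAT, 0 of 37 members were called in any comparison. UCP1 KO against WT had 3 members at an unadjusted p under 0.05 by edgeR and 0 calls by DESeq2, with 0.61% of all 17380 genes called. For dKO against FGF21 KO these were 3, 0 and 0.0115%, for UCP1 KO against dKO 0, 0 and 0.466%, for FGF21 KO against WT 10, 0 and 0.00575%, and for the interaction 4, 0 and 0%. Without the 9 libraries rich in lymph node genes, which are 4 of 5 in FGF21 KO and 2 of 5 in WT, the members at an unadjusted p under 0.05 were 14 for UCP1 KO against WT and 1 for FGF21 KO against WT, where the median log2 fold change went from 0.44 to -0.60 with a single FGF21 KO library left. Gpnmb had the values 34.8, 29.2, 34.1, 30.6 and 42.7 CPM in WT, 269, 26, 74.4, 42.3 and 190.1 in FGF21 KO, 104, 14.4, 68.4, 109 and 132 in UCP1 KO and 47.6, 152, 47.2, 159.9 and 77.1 in dKO. The WT libraries were close together and every other genotype was spread widely, and UCP1 KO against WT gave 1.32 (SE 0.596, adjusted p = 0.302). Trem2 was at 5.65, 2.42, 3.34, 1.75 and 5.62 CPM in WT, 24.3, 3.65, 6.54, 3.61 and 19.8 in FGF21 KO, 14.7, 1.5, 6.2, 14.9 and 15.1 in UCP1 KO and 5.92, 21.4, 4.76, 17.7 and 7.65 in dKO. It spread in the same libraries as Gpnmb, with a log2 fold change of 1.48 (SE 0.658, adjusted p = 0.293).

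Lymph node genes moved with some members in iWAT. The 9 libraries rich in lymph node genes were WT replicates 4 and 5, UCP1 KO replicate 2, dKO replicates 1 and 3 and FGF21 KO replicates 1, 3, 4 and 5. Marco, a scavenger receptor of lymph node and splenic macrophages, measured 71.6 to 224 CPM in them and 0.701 to 5.22 CPM in the other 11. Timd4 measured 69.4 to 204 CPM against 3.88 to 23.7, Tnf 7.31 to 15.2 against 0.738 to 3.21, and Mpeg1 182 to 497 against 61.7 to 181. For these 4 of the 37 members the 9 libraries all lay above the other 11, and for 0 members all below, against 19.3% and 9.81% of all genes tested in iWAT. The score itself set the groups, and the members separated less often than genes in general. Timd4 by library was 23.7, 12.5, 17.2, 73.1 and 76.6 CPM in WT, 127, 8.7, 204, 139.6 and 69.4 in FGF21 KO, 11.6, 107, 3.88, 11.6 and 7.72 in UCP1 KO and 117, 7.91, 97.4, 5.22 and 9.64 in dKO. Vsig4 was 3.6, 1.15, 1.67, 0.669 and 0.775 CPM in WT, 0.673, 1.4, 0.667, 0.919 and 0.888 in FGF21 KO, 3.72, 0.284, 0.627, 2.6 and 1.81 in UCP1 KO and 0.715, 1.81, 0.508, 0.906 and 1.82 in dKO. Clec4f stayed at or below 0.752 CPM in every iWAT library.

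**Figure D3:**
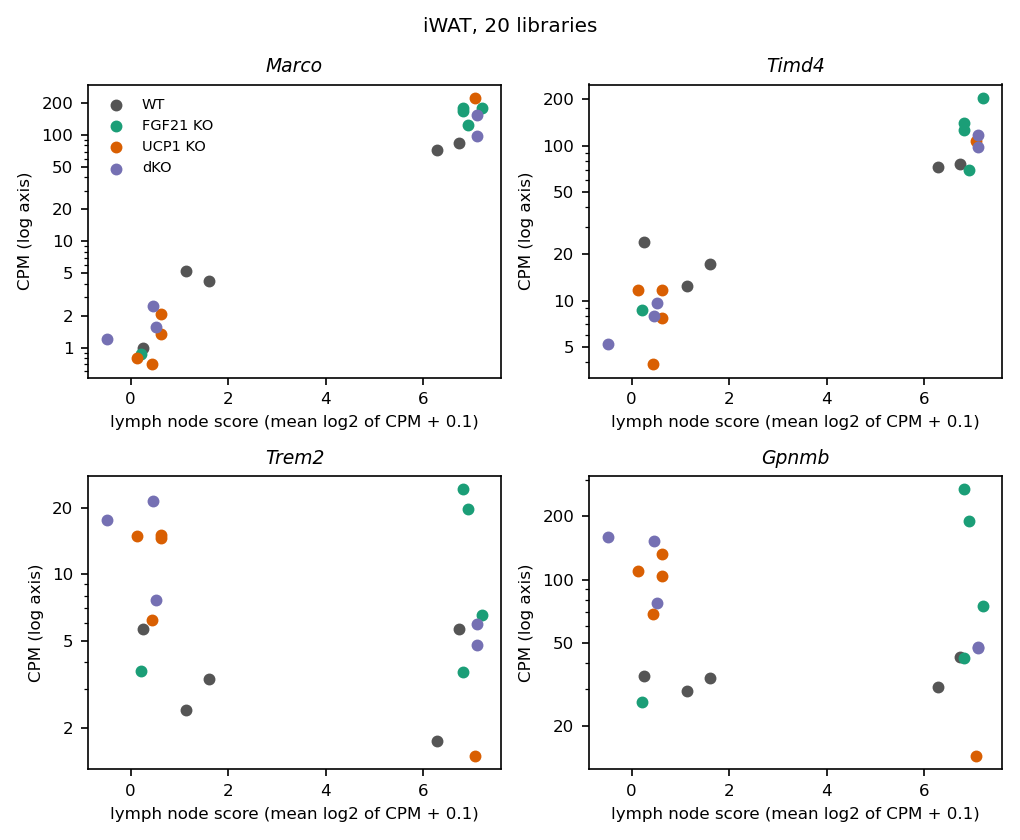
CPM of 4 members in iWAT (log axis) against the lymph node score of the library (mean log2 of CPM plus 0.1 over 8 genes), 1 point per library, coloured by genotype. The 9 libraries with scores of 6.28 to 7.21 lie above the 11 others for Marco and Timd4, and overlap them for Trem2 and Gpnmb.

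Within the 11 iWAT libraries with a low lymph node score (3 WT, 4 UCP1 KO, 3 dKO and 1 FGF21 KO, whose single library is taken to vary like the others), 2 of 35 tested members were higher in the libraries labelled UCP1 KO than in those labelled WT, against 3.53% of all genes. They were Gpnmb at 1.64 (SE 0.282, adjusted p = 0.00614) and Chil3, a chitinase-like protein of alternatively activated macrophages, at 4.09 (SE 0.773, adjusted p = 0.00968). Over all 20 libraries Chil3 was 0.415, 0.231, 0.162, 0.884 and 8.02 CPM in WT and 2.49, 3.48, 1.66, 11.4 and 3.15 in UCP1 KO, with WT replicate 5 among the highest, and gave 1.19 (SE 1.02, adjusted p = 0.698). Within the 11, Trem2 stood at 1.73 (0.0334) and Lyz1 at -1.19 (0.0357). By library Lyz1 was 142, 74.6, 79.5, 115 and 161 CPM in WT, 169.6, 43.7, 137, 119 and 112 in FGF21 KO, 43.2, 119.5, 33, 33.9 and 64.9 in UCP1 KO and 136, 45.2, 118, 27.2 and 53.7 in dKO. Its UCP1 KO values overlapped WT only in replicate 2, the library rich in lymph node genes. Lyz2 was 933, 541, 647, 797 and 1168 CPM in WT, 1474, 557, 1713, 1109 and 1438 in FGF21 KO, 1005, 1038, 432, 837 and 983 in UCP1 KO and 903, 629.9, 1021, 690.5 and 615 in dKO, with wide overlap.

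The response to UCP1 loss was then set between the fat depots in 1 fit of the 40 BAT and iWAT libraries, a test added after the data were seen. The BAT change exceeded the iWAT change for 2 of 37 members, against 2.31% of all genes in that direction. Itgax differed by 2.60 on the log2 scale (SE 0.639, adjusted p = 0.00541) and Tyrobp by 1.33 (SE 0.351, adjusted p = 0.00929). There were 21 at an unadjusted p under 0.05 and 13 when the adjusted p had only to be under 0.05. The shares of all genes at these looser limits were not computed, so the 21 and 13 stand without a reference. Leaving out the 9 iWAT libraries rich in lymph node genes, the called members were Itgax at 1.91 (0.00475) and Lyz1 at 1.98 (0.00428), 2 of 35 members against 4.16% of all genes. Tyrobp was then 1.16 (0.0176) and not called.

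In liver 0 of 34 members were called in any comparison by edgeR. UCP1 KO against WT had 3 at an unadjusted p under 0.05 and 0.0694% of all 14407 genes called, and DESeq2 called 1, Gpnmb. The other comparisons had 0 calls by DESeq2, with 0 members at an unadjusted p under 0.05 (edgeR) and 0.00694% of genes for dKO against FGF21 KO, 1 and 0.00694% for UCP1 KO against dKO, 2 and 0.229% for FGF21 KO against WT, and 3 and 0% for the interaction. Gpnmb, singled out after its values were seen, was 0.134, 0.0893, 0.142, 0.0982 and 0.246 CPM in WT, 0.173, 0.157, 0.407, 0.272 and 0.242 in FGF21 KO, 0.386, 0.897, 0.963, 0.435 and 1.23 in UCP1 KO and 0.25, 0.244, 0.259, 0.397 and 0.691 in dKO. All UCP1 KO libraries exceeded the WT range, at 12 to 37 counts against 3 to 8. The log2 fold change was 2.45 (SE 0.413, adjusted p = 0.0104), and DESeq2 gave an adjusted p of 9.16e-05. Leaving out 1 library at a time, it was called in 5 of 20 fits (without WT replicate 5, UCP1 KO replicate 1 or dKO replicate 2, 4 or 5), with adjusted p between 0.00407 and 0.0506. With the skeletal muscle score as covariate it was 2.04 (0.607). That score was 1.64 to 3.73 in WT liver and at most 2.13 in the other genotypes.

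**Figure D4:**
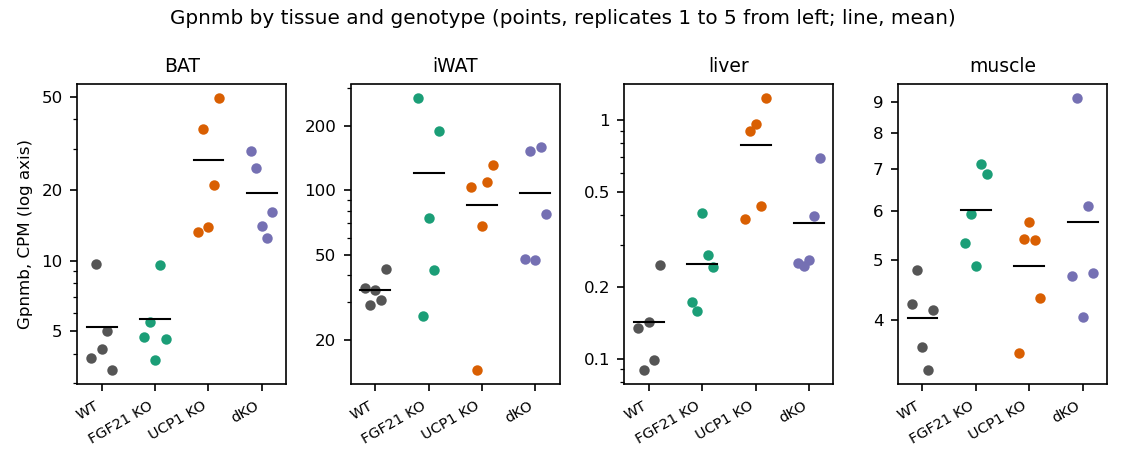
CPM of Gpnmb in every library of the 4 tissues (log axis), by genotype, with group means. In BAT the UCP1 KO and dKO libraries lie above WT and FGF21 KO, in iWAT the WT libraries lie within 29.2 to 42.7 CPM, and in liver the UCP1 KO libraries lie above WT, at 1.23 CPM or less.

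The Kupffer cell markers overlapped between all genotypes in liver. Clec4f, the galactose-binding lectin found on Kupffer cells, was 137, 121, 141, 71.3 and 99.3 CPM in WT, 63.6, 47.9, 122, 79.4 and 121 in FGF21 KO, 137, 73.4, 85.9, 121 and 97 in UCP1 KO and 57, 96.4, 83.6, 132 and 101 in dKO. Vsig4, the complement receptor of resident macrophages, was 36.6, 31.6, 36.7, 15.7 and 21.1 CPM in WT, 14.7, 11.1, 32.2, 29 and 28.5 in FGF21 KO, 35.9, 20.6, 20.8, 30.4 and 20.1 in UCP1 KO and 12.2, 31.4, 22.6, 33.9 and 23 in dKO. Timd4 was 8.91, 6.55, 8.0, 3.93 and 5.96 CPM in WT, 3.95, 3.6, 9.16, 18.8 and 6.98 in FGF21 KO, 9.62, 4.63, 5.25, 14.6 and 5.27 in UCP1 KO and 3.51, 6.71, 5.43, 7.25 and 6.33 in dKO. For UCP1 KO against WT the log2 fold changes were -0.15 (adjusted p = 0.885), -0.15 (0.908) and 0.24 (0.877). Lyz2 was 81.4, 69.2, 72.3, 40.4 and 63.3 CPM in WT, 39.95, 30.6, 71.3, 142 and 67.8 in FGF21 KO, 74.1, 48.4, 43.1, 113 and 65.4 in UCP1 KO and 32.6, 73, 52.6, 79.5 and 66.8 in dKO. Lyz1 lay between 0.0518 and 0.615 CPM. FGF21 KO replicate 4 and UCP1 KO replicate 4 held the most Lyz2 and Timd4, and they also held 102 and 64.0 CPM of Marco, against at most 20.2 in the other 18 libraries.

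In muscle 0 of 33 members were called in any comparison by edgeR, with 5 members at an unadjusted p under 0.05 and 0.0265% of all 15114 genes called in UCP1 KO against WT, 6 and 0.0595% in dKO against FGF21 KO, 5 and 0% in UCP1 KO against dKO, 4 and 0.00662% in FGF21 KO against WT, and 2 and 0% in the interaction. DESeq2 called 1 in FGF21 KO against WT and 0 in the others.

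In muscle, Lyz2 was 78.2, 78.8, 94.8, 90.7 and 71.3 CPM in WT, 87.8, 101, 108, 119.8 and 123 in FGF21 KO, 90.00, 113, 95, 87.5 and 81.6 in UCP1 KO and 86, 121, 107, 112 and 91.3 in dKO. Its FGF21 KO libraries overlapped WT in replicate 1 alone, and FGF21 KO against WT gave 0.38 (SE 0.11, adjusted p = 0.101). Lyz1 was 8.01, 8.39, 8.04, 7.2 and 5.75 CPM in WT, 4.94, 7.12, 7.54, 8.24 and 8.82 in FGF21 KO, 5.67, 10.3, 8.23, 5.61 and 6.0 in UCP1 KO and 10.2, 8.3, 13.6, 11.3 and 9.42 in dKO. Timd4 was 1.49, 1.14, 1.09, 1.5 and 0.962 CPM in WT, 0.828, 1.22, 1.03, 1.36 and 1.18 in FGF21 KO, 0.892, 1.38, 1.19, 1.57 and 1.08 in UCP1 KO and 1.19, 1.23, 1.25, 1.22 and 1.04 in dKO, with every genotype overlapping. The dKO replicate 2 stood out in several members, with Spp1 at 19.4 CPM, Gpnmb at 9.12 CPM and Vsig4 at 1.93 CPM against at most 0.559 elsewhere. The neutrophil score was 1.41 in that library and at most -1.62 in the other genotypes.

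In WT mice the tissues held the list at different levels. Across the 36 members that could be tested in the 20 WT libraries, iWAT held more of 32 than muscle and less of 0 (edgeR, adjusted p under 0.01), against 41.2% of all genes higher and 33.2% lower. BAT held more of 0 and less of 31 than iWAT (28% and 32.7% of all genes). Liver held more of 24 and less of 6 than BAT (32.5% and 34.8%), more of 6 and less of 26 than iWAT (36.6% and 38.2%), and more of 23 and less of 6 than muscle (35.2% and 38.6%). BAT and muscle differed in 8, with 2 higher in BAT, Cd14 and Nos2, and 6 lower (32.3% and 31.8%). Without the 2 WT iWAT libraries rich in lymph node genes, liver was higher than iWAT for 8 and lower for 24 (39.6% and 36.2% of all genes), and the same 31 members differed between BAT and iWAT (29.1% of all genes higher and 31.6% lower in BAT).

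**Figure D5:**
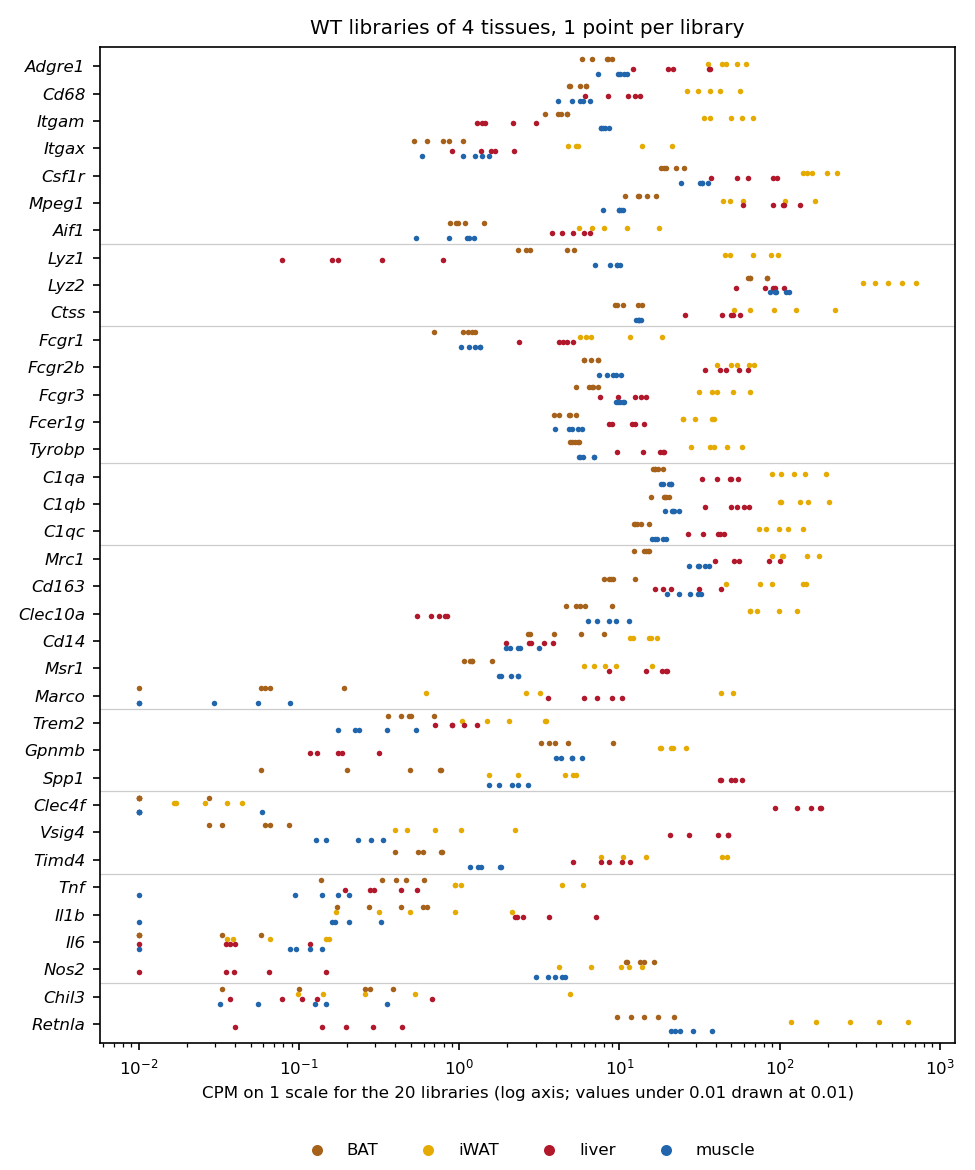
CPM of members in the WT libraries of 4 tissues, scaled together over the 20 libraries, on a log axis, 1 point per library, 5 libraries per tissue and members grouped by role, with values under 0.01 drawn at 0.01. The liver libraries lie above all others for Clec4f and Vsig4, and the iWAT libraries for Gpnmb and Lyz2.

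In this fit 25 members were called higher in iWAT than in each other tissue and 6 in liver, among them Clec4f, Spp1, Vsig4, Il1b and Msr1. Without the 2 lymph node libraries these were 23 and 8, where Timd4 and Aif1 were no longer called above liver (Aif1 -0.40 for liver against iWAT, adjusted p = 0.068), and Marco (1.75, adjusted p = 0.000651) and Mpeg1 (0.96, adjusted p = 0.000106) were called higher in liver than in iWAT. The CPM values of this paragraph are scaled together over the 20 WT libraries, and so differ from those scaled within 1 tissue. Clec4f was 148 ± 37.3 CPM (SD, n = 5) in WT liver and below 1 CPM in the other tissues. Vsig4 was 36.9 ± 12.4 CPM in liver and 0.967 ± 0.746 CPM in iWAT. Timd4 was 8.68 ± 2.48 CPM in liver and 24.7 ± 19 CPM in iWAT, where the 2 libraries rich in lymph node genes held 43.7 and 46.8 CPM. The other 3 held 7.65 to 14.7 CPM, overlapping the 5.17 to 11.6 CPM of liver. Liver against iWAT was -1.51 (adjusted p = 0.00174) with those 2 libraries and -0.34 (0.165) without them. Gpnmb was called lower in liver than in each other tissue, with 20.9 ± 3.29 CPM in iWAT, 4.95 ± 2.41 in BAT, 4.87 ± 0.694 in muscle and 0.184 ± 0.0794 in liver.

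Levels of different genes were compared per kilobase of exon, as CPM per kb in WT, scaled and ordered within each tissue. In BAT Lyz2 was highest at 57.9, followed by Retnla at 26.5, C1qb at 18.2, C1qa at 17.4 and Ctss at 8.76. In iWAT Retnla, a secreted protein of alternatively activated macrophages and of white fat, was highest at 878 (SD 561), above Lyz2 at 621 (SD 187), C1qb at 207, C1qa at 205 and Ctss at 134. Over all genotypes, the 9 iWAT libraries rich in lymph node genes held 85.8 to 321 CPM of Retnla and the other 11 held 143 to 1030. For Lyz2 these were 797 to 1713 and 432 to 1005, so the order by mean mixes 2 kinds of library. In liver Lyz2 was at 49.6, Clec4f at 46.1 and C1qb at 37.1. Muscle had Lyz2 at 62.9, Retnla at 37.1 and C1qb at 16.3. Lyz2, Retnla and C1qb were thus among the highest in BAT, iWAT and muscle, and Clec4f in liver alone.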

How the data were processed

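RNA of BAT, iWAT, liver and skeletal muscle was sequenced as stranded poly(A) libraries, 100-base paired reads. Per the study's methods and labels, the authors aligned reads with STAR to mm10 and counted them per gene with HTSeq. The strand option is not given in the sources used here. The deposited values are whole-number counts of reads per gene, not normalized, 32764 genes per library. A row of unassigned reads (at most 15 counts) was left out, and 0 columns belonged to other samples. No pair among 760 pairs of libraries of 1 tissue was identical.

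Genes passed where the highest count was above 15, the sum above 75 and at most 10 libraries were at 0, per tissue. Counts were scaled by TMM factors and tested with edgeR 4.0.16 (R 4.3.3; glmQLFit, glmQLFTest, 1 mean per genotype, all 20 libraries of a tissue), with Benjamini-Hochberg adjustment over all genes tested, and a gene was called at an adjusted p under 0.01. Fold changes came from these fits at edgeR's default prior count. CPM was scaled within each tissue, and for the WT tissues, tested in 1 fit of 20 libraries, together over those 20. The scripts were tested on simulated data. The alternatives were DESeq2 1.42.0, its size factors (RLE) in edgeR, no filter, an adjusted p under 0.05, only the genotypes compared, the skeletal muscle or (iWAT) lymph node score as a covariate, leaving out each library, and, added after the data were seen, only BAT libraries with a muscle score at or under 6 and WT tissues without lymph node libraries. The iWAT fit without lymph node libraries used a score of 4 as its limit. Motifs were searched in RefSeq promoters of GRCm38.p6. Values per library are given for the 14 widest called members in BAT, the Kupffer markers and the lysozymes where tested. Up to 4 called genes per other list are named. Members and lists were chosen with earlier results of these data known. Some genes of the lists enter the counts and are not reported by name here.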

Additional observations from a re-analysis of the deposited data

Results flagged for a closer look

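With 5 libraries per group, a library was set apart where its gap to the nearest other, divided by the range of its group, exceeded 0.71. Gap and range were taken on a log scale, while the values printed here are CPM. Of 124 groups tested, 31 members by tissue in 4 genotypes, 10 did so. Chance gives about 1 in 20 for independent groups, and members read in the same libraries are not independent. The 10 are therefore given as a list only. In BAT, dKO replicate 2 was the highest for Tyrobp (ratio 0.865, 15.1 CPM with the next at 9.83), Fcer1g (0.762, 13.5 and 8.13) and Ctss (0.73, 58.4 and 29.8). FGF21 KO replicate 4 was the highest for Cd68 (0.78, 8.27 and 6.31) and Adgre1 (0.762, 13.6 and 8.23). WT replicate 3 was the lowest for C1qb (0.748, 16.7 and 20.1) and Fcgr1 (0.711, 0.734 and 1.12). In iWAT, UCP1 KO replicate 3 was the lowest for Lyz2 (0.754, 432 and 837). In muscle, dKO replicate 2 was the highest for Vsig4 (0.765, 1.93 and 0.375) and dKO replicate 5 the lowest for Timd4 (0.75, 1.04 and 1.19).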

How the results depend on the processing

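The calls of UCP1 KO against WT in BAT ran from 18 to 21 members when each library was left out, and stayed within 1.5 times 19 under every other alternative. For dKO against FGF21 KO in BAT the count ran from 2 to 7 when each library was left out (lowest without dKO replicate 2, FGF21 KO replicate 1 or 5). At an adjusted p under 0.05, 1 member was called in liver UCP1 KO against WT, 1 in muscle FGF21 KO against WT, 18 between WT BAT and muscle and 13 in the BAT response minus the iWAT response. Shares of all genes at that limit were not computed. DESeq2 called 1 in liver and 1 in muscle in these comparisons, the edgeR fit without a filter called 1 in liver, and leaving out each library gave 0 to 1 in liver. The iWAT libraries with a low lymph node score gave 2 for UCP1 KO against WT.

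For UCP1 KO against WT in BAT, 3 members that were not called changed sign. Timd4 was -0.035 with the muscle covariate and -0.064 without UCP1 KO replicate 2, and lay between -0.064 and 0.43 when each library was left out. Nos2 was 0.091 with the muscle covariate, 0.051 in libraries with a low muscle score and 0.00897 without UCP1 KO replicate 2, between -0.26 and 0.00897 when each was left out. Retnla lay between -0.69 and 0.072, above 0 without WT replicate 1 (0.072), UCP1 KO replicate 4 (0.05) or UCP1 KO replicate 5 (0.03). The causes were not tested. No paired analysis was possible because the labels carry no replicate numbers. For dKO against FGF21 KO in BAT, Lyz1 (0.11, not called) was -0.21 with the muscle covariate, -0.0997 in libraries with a low muscle score, -0.081 without dKO replicate 3 and -0.0866 without FGF21 KO replicate 1, and Clec10a (0.27, not called) was -0.14 with the muscle covariate. Clec4f, Vsig4, Marco and Il6 had few counts in BAT. Of the fits of BAT libraries alone, these members entered only that without a filter. It called Il6 in UCP1 KO against WT (adjusted p = 0.00402). All of them also entered the joint fit of BAT and iWAT libraries, where they were not called. Clec4f, Vsig4 and Marco entered the fit of WT tissues as well.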
